A study of Homo sapiens with 6 samples.

Results

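U251, an established human glioblastoma cell line, was profiled by RNA sequencing after stable expression of a short hairpin RNA against TRAF2 (sh-TRAF2, n = 3) or of a control hairpin (sh-NC, n = 3). TRAF2 is an adaptor and ubiquitin ligase of TNF receptor signalling, and the study asked what its loss does to the transcriptome of these cells. The control cells also carry a hairpin vector and passed puromycin selection, the labels name no further treatment, and the sources used here do not state which of the study's TRAF2 hairpins made these samples. The genes described here encode the nuclear subunits of oxidative phosphorylation. This gene family was chosen with earlier results of these data known. Its members were picked by gene symbol (NDUF with A, B, C, S or V and a number, SDHA to SDHD, UQCR, COX4 to COX8 and ATP5, without pseudogene names), which gave 90 of 23002 rows. Of these, 84 are protein-coding subunit genes, with 38 in complex I, 4 in complex II, 9 in complex III, 14 in complex IV and 19 in complex V, and 6 are antisense or divergent transcripts named after a subunit gene.

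Oxidative phosphorylation is carried out by 5 complexes of the inner mitochondrial membrane. Complex I and complex II pass electrons from NADH and succinate to ubiquinone, complex III passes them on to cytochrome c, and complex IV reduces oxygen, while complex V, the ATP synthase, uses the proton gradient to make ATP. Most subunits are encoded in the nucleus and imported, whereas the mitochondrial genome encodes a small set of core subunits, so that complexes I, III, IV and V are assembled from products of both genomes and complex II from nuclear products alone. Glioblastoma cells are known for active glycolysis, and they also respire.

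The deposited values are FPKM, which count the fragments on a gene relative to its length and to the depth of the sample. The 6 samples held 33999558 to 36823562 reads assigned to genes, as recovered from the steps of the FPKM values. TRAF2 itself was at 15.1, 18.4 and 15.3 FPKM in the sh-NC samples and at 3.26, 3.22 and 3.33 FPKM in the sh-TRAF2 samples, so the labels and the target gene went together. Of the glioma markers, VIM, NES, CD44 and SOX2 were present in each sample, GFAP was at 0.334 to 1.62 FPKM and S100B was at or near 0. Of these markers 3 of 5 tested (60%) rose in sh-TRAF2, beside 23.7% of all genes tested. They were GFAP, NES and VIM. The groups were separate for NES and VIM but overlapped for GFAP, which was low. The summed level of 7 markers of leukocytes, endothelium, epithelium and neurons was 0.871 to 0.974 FPKM in sh-NC and 1.11 to 1.54 FPKM in sh-TRAF2, most of it KRT8, and their part in the results was not tested.

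Each comparison below is sh-TRAF2 against sh-NC, for which limma was run two-sided on log2(FPKM + 0.1) of the 11870 genes whose mean reached 0.5 FPKM, and p was adjusted over all of them by Benjamini-Hochberg. A gene is said to rise or fall only at an adjusted p under 0.05. With 3 samples against 3 an exact permutation test of one gene cannot go below p = 0.1. The labels do not say whether the samples of a group came from separate cultures, so the p-values measure the spread between these samples, which may be technical.

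Of the 84 subunit genes, 79 passed the filter and the other 5 (COX6B2, COX7A1, COX8C, ATP5F1E and ATP5MGL) were too low to be tested. Among the 79 tested subunits 32 rose, 6 fell and 41 were not called. Over all genes tested 23.7% rose and 20.9% fell, against 40.5% and 7.59% of the tested subunits. The subunits are abundant transcripts, and among all genes with a mean of at least 20 FPKM the background was different: 38.4% of those 3017 genes rose and 22.7% fell, against 33 (50%) and 4 (6.06%) of the 66 subunits at that level. After quantile normalization the split was 24 higher and 9 lower.

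The changes were small. No subunit passed an absolute log2 fold change of 1, a fold that 1.72% of all genes tested passed, and the log2 fold changes ran from -0.96 (NDUFA4L2) to 0.51 (UQCRHL). The median log2 fold change of the 79 tested subunits was 0.10, beside 0.019 over all genes tested. At 20 FPKM or more it was 0.11 for the subunits, beside 0.059 over all genes at that level. By complex, the median was 0.047 in complex I, -0.035 in complex II, 0.12 in complex III, 0.13 in complex IV and 0.16 in complex V. The median deviation of the subunits from the sh-NC mean was between -0.014 and 0.024 in the sh-NC samples and between 0.095 and 0.11 in the sh-TRAF2 samples. Over all genes tested it was between -0.0012 and 0.00075 in sh-NC and between 0.0032 and 0.032 in sh-TRAF2. The groups thus did not overlap in either summary, so the separation is not particular to the subunits.

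**Figure D1:**
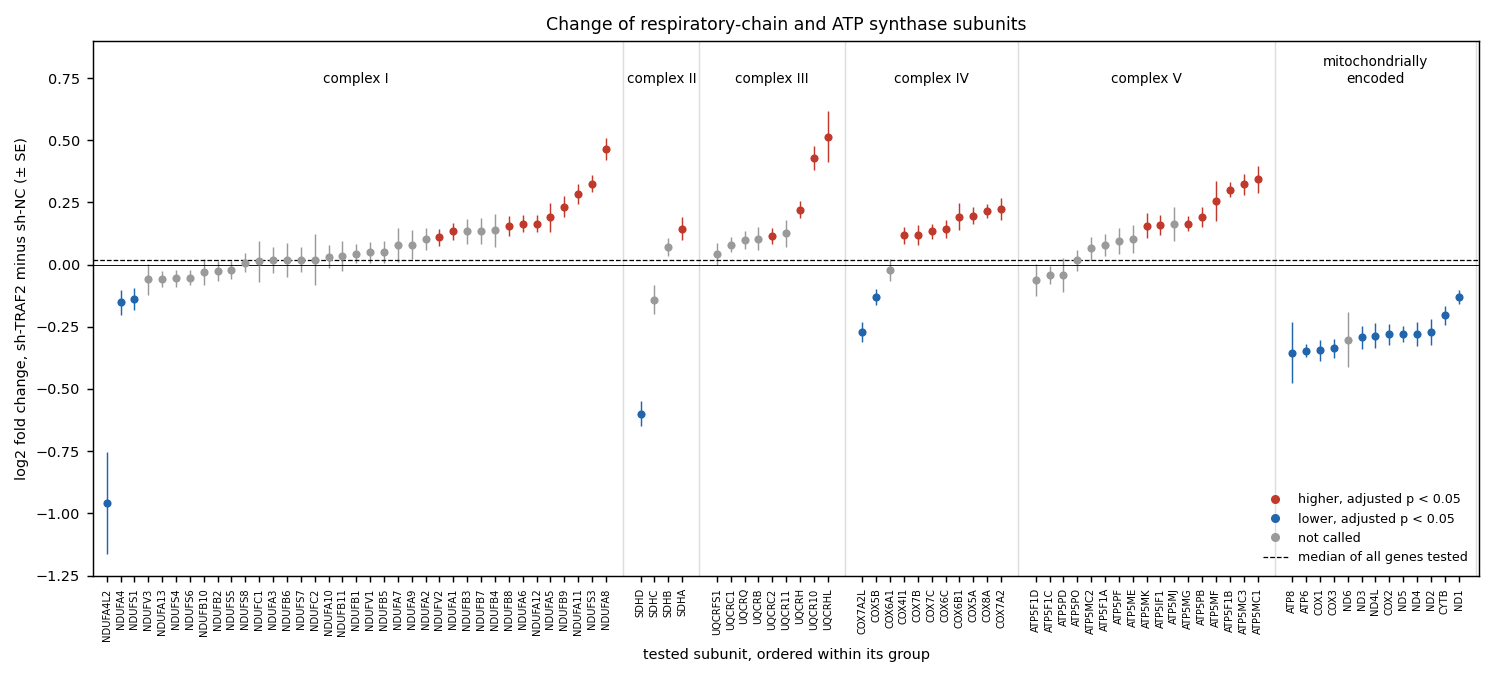
Log2 fold change (sh-TRAF2 minus sh-NC, ± SE, n = 3 and 3) of 78 of the 79 tested nuclear subunits by complex and of the 13 mitochondrially encoded subunits, coloured by the call at an adjusted p under 0.05, with the median of all genes tested as a dashed line. Complexes III and V hold no subunit that fell, SDHD stands apart in complex II, and each of the mitochondrially encoded subunits lies below 0.

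The levels of the subunits differed widely between genes. Mean FPKM in sh-NC ran from 1.43 (NDUFA4L2) to 271 (NDUFS5, a small accessory subunit) in complex I, from 6.36 (SDHC) to 105 (SDHB) in complex II and from 11.7 (UQCRHL) to 204 (UQCRH) in complex III. In complex IV the highest mean over the 6 samples belonged to COX8A, at 280.4 FPKM in sh-NC, and in complex V to ATP5F1B, at 324 FPKM. FPKM divides by a gene length, and the lengths implied by the values ran from 279 bases for UQCRHL to 13567 bases for SDHC, which is longer than the common transcript of several of these genes, so a level between genes is lowered where the length counts rarely used exons. NDUFC2, at 2.22 to 2.85 FPKM, and ATP5F1E, at 0.291 to 0.686 FPKM, were low for obligate subunits. In GENCODE 29, NDUFC2 shares exons with the readthrough gene NDUFC2-KCTD14, and ATP5F1E overlaps TUBB1 on the other strand, so the levels of both are uncertain.

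**Figure D2:**
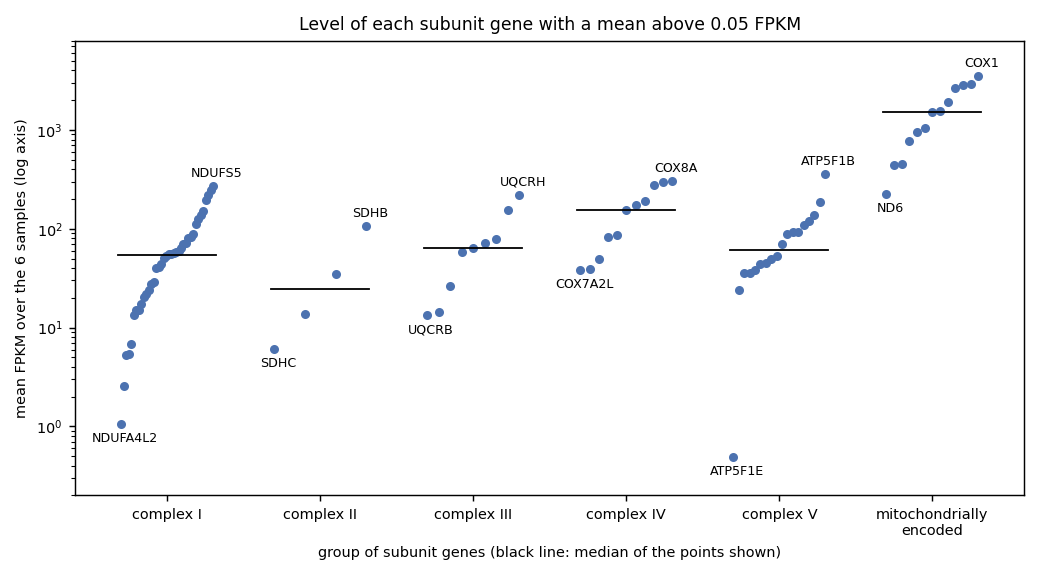
Mean FPKM over the 6 samples (log axis) of each subunit gene above 0.05 FPKM, by complex, with the highest and lowest gene named and the median of the points as a black line. The mitochondrially encoded subunits lie highest as a group, and NDUFA4L2 and ATP5F1E lie lowest among the nuclear genes shown.

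In complex I, 11 of 38 subunits (28.9%) rose, 3 (7.89%) fell and 24 were not called. Over all genes tested 23.7% rose and 20.9% fell. Among all genes with a mean of at least 20 FPKM 38.4% rose and 22.7% fell. The median level of the complex I genes in sh-NC was 51.8 FPKM, and their share of rises lay below that of genes at this level. Without NDUFA4 and NDUFA4L2, described below, 11 of 36 (30.6%) rose and 1 (2.78%) fell. The largest rise was that of NDUFA8, an accessory subunit with a twin pair of cysteine motifs. NDUFA8 was at 16.6, 17.6 and 16.8 FPKM in sh-NC and at 24.1, 23.4 and 23.0 FPKM in sh-TRAF2. The groups did not overlap, and the log2 fold change was 0.47 (SE 0.044, adjusted p = 0.00011).

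The core of complex I is the part conserved from bacteria, which holds the flavin and the iron-sulfur clusters. Among its nuclear subunits NDUFS3 and NDUFV2 rose, NDUFS1 fell, and NDUFV1, NDUFS7 and NDUFS8 were not called. NDUFS3 was at 53.3, 52.4 and 51.6 FPKM in sh-NC and at 65.5, 67.3 and 64.5 FPKM in sh-TRAF2, a log2 fold change of 0.33 (SE 0.035, adjusted p = 0.00019). Its lowest sh-TRAF2 sample lay well above its highest sh-NC sample. NDUFS3 shares exons with PTPMT1 on the same strand, and PTPMT1 itself had a log2 fold change of -0.17 (SE 0.072, adjusted p = 0.089).

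NDUFS1, the large iron-sulfur subunit of the NADH-oxidising module, was at 15.9, 15.5 and 16.1 FPKM in sh-NC and at 14.2, 14.8 and 14.1 FPKM in sh-TRAF2, a log2 fold change of -0.14 (SE 0.043, adjusted p = 0.032). NDUFV2, of the same module, had a log2 fold change of 0.11 (SE 0.033, adjusted p = 0.026). Neither call was firm, since NDUFS1 was no longer called without sh-NC replicate 1 or 3 or sh-TRAF2 replicate 1 or 3 (adjusted p of 0.076 to 0.10), and NDUFV2 without any one of 5 samples (adjusted p of 0.057 to 0.096). NDUFV1, which binds the flavin and NADH, had a log2 fold change of 0.050 (SE 0.042), and those of NDUFS7 and NDUFS8 were 0.020 (SE 0.050) and 0.0084 (SE 0.039), with a sign that changed under other scalings.

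Outside the core, NDUFA11, an accessory subunit of the membrane arm, was at 46.2, 47.7 and 44.6 FPKM in sh-NC and at 54.9, 57.8 and 55.6 FPKM in sh-TRAF2, a log2 fold change of 0.28 (SE 0.040, adjusted p = 0.00081). By symbol family, 6 of 14 NDUFA genes, 2 of 11 NDUFB genes and 0 of 2 NDUFC genes rose. The shares were 23.7% of all genes tested and 38.4% of those with a mean of at least 20 FPKM. NDUFS5, the most abundant complex I transcript, had a log2 fold change of -0.020 (SE 0.036, adjusted p = 0.67).

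NDUFA4 and NDUFA4L2 carry complex I names, and NDUFA4 is now known as a subunit of complex IV, while NDUFA4L2 is its paralogue, known for induction in hypoxia. NDUFA4L2 was at 1.32, 1.34 and 1.63 FPKM in sh-NC and at 0.550, 0.976 and 0.591 FPKM in sh-TRAF2. It had the largest fall of any subunit, with a log2 fold change of -0.96 (SE 0.21, adjusted p = 0.0061), but from only 24 to 76 reads a sample. Without sh-NC replicate 1 or sh-TRAF2 replicate 2 its log2 fold change passed 1 in size (-1.01 and -1.18). NDUFA4L2 shares exons with SHMT2 on the other strand. SHMT2 was at a mean of 155 FPKM in sh-NC and 153 FPKM in sh-TRAF2, a log2 fold change of -0.017 (SE 0.041, adjusted p = 0.75). Since the strandedness of the counting is not given, reads of this overlap cannot be assigned. Their part in the low level and the fall of NDUFA4L2 was not tested. NDUFA4 was at 76.1, 75.7 and 75.1 FPKM in sh-NC and at 72.6, 63.3 and 68.6 FPKM in sh-TRAF2, a log2 fold change of -0.15 (SE 0.050, adjusted p = 0.037). Leaving out any sh-NC sample, or sh-TRAF2 replicate 2 or 3, ended the call for NDUFA4 (adjusted p of 0.070 to 0.10). HIF1A, which encodes the hypoxia-regulated transcription factor subunit, had a log2 fold change of -0.094 (SE 0.048, adjusted p = 0.15).

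Complex II, succinate dehydrogenase, has no mitochondrially encoded subunit, and its 4 genes did not move together. SDHD, one of its membrane anchors, was at 39.8, 43.1 and 44.5 FPKM in sh-NC and at 28.3, 27.2 and 28.4 FPKM in sh-TRAF2. Each sh-TRAF2 sample lay far below each sh-NC sample, and the mean fell by 34.1%, a log2 fold change of -0.60 (SE 0.049, adjusted p = 5.4e-05). SDHC, the other anchor, was at 6.18, 6.36 and 6.54 FPKM in sh-NC and at 5.99, 5.75 and 5.55 FPKM in sh-TRAF2, a log2 fold change of -0.14 (SE 0.056, adjusted p = 0.074) that was not called. SDHC was called lower with limma-voom on the recovered reads (adjusted p = 0.031) and on rescaling without the mitochondrially encoded genes (adjusted p = 0.036).

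The catalytic subunits did not share the fall of SDHD. SDHA, the flavoprotein that oxidises succinate, was at 13.4, 13.3 and 12.4 FPKM in sh-NC and at 14.2, 14.5 and 14.5 FPKM in sh-TRAF2, a log2 fold change of 0.14 (SE 0.047, adjusted p = 0.036). The call for SDHA was lost on leaving out any one of 5 samples (adjusted p of 0.059 to 0.12). SDHB, the iron-sulfur subunit, was at 106, 105 and 104 FPKM in sh-NC and at 105, 112 and 113 FPKM in sh-TRAF2, so the groups overlapped, and its log2 fold change was 0.071 (SE 0.037, adjusted p = 0.15). Without sh-TRAF2 replicate 1, SDHB was called higher (adjusted p = 0.047). SDHD overlaps TIMM8B on the other strand in GENCODE 29, and since the strandedness of the counting is not given in the sources used here, reads of the overlap cannot be assigned; TIMM8B had a log2 fold change of 0.18 (SE 0.046, adjusted p = 0.013), opposite to that of SDHD.

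**Figure D3:**
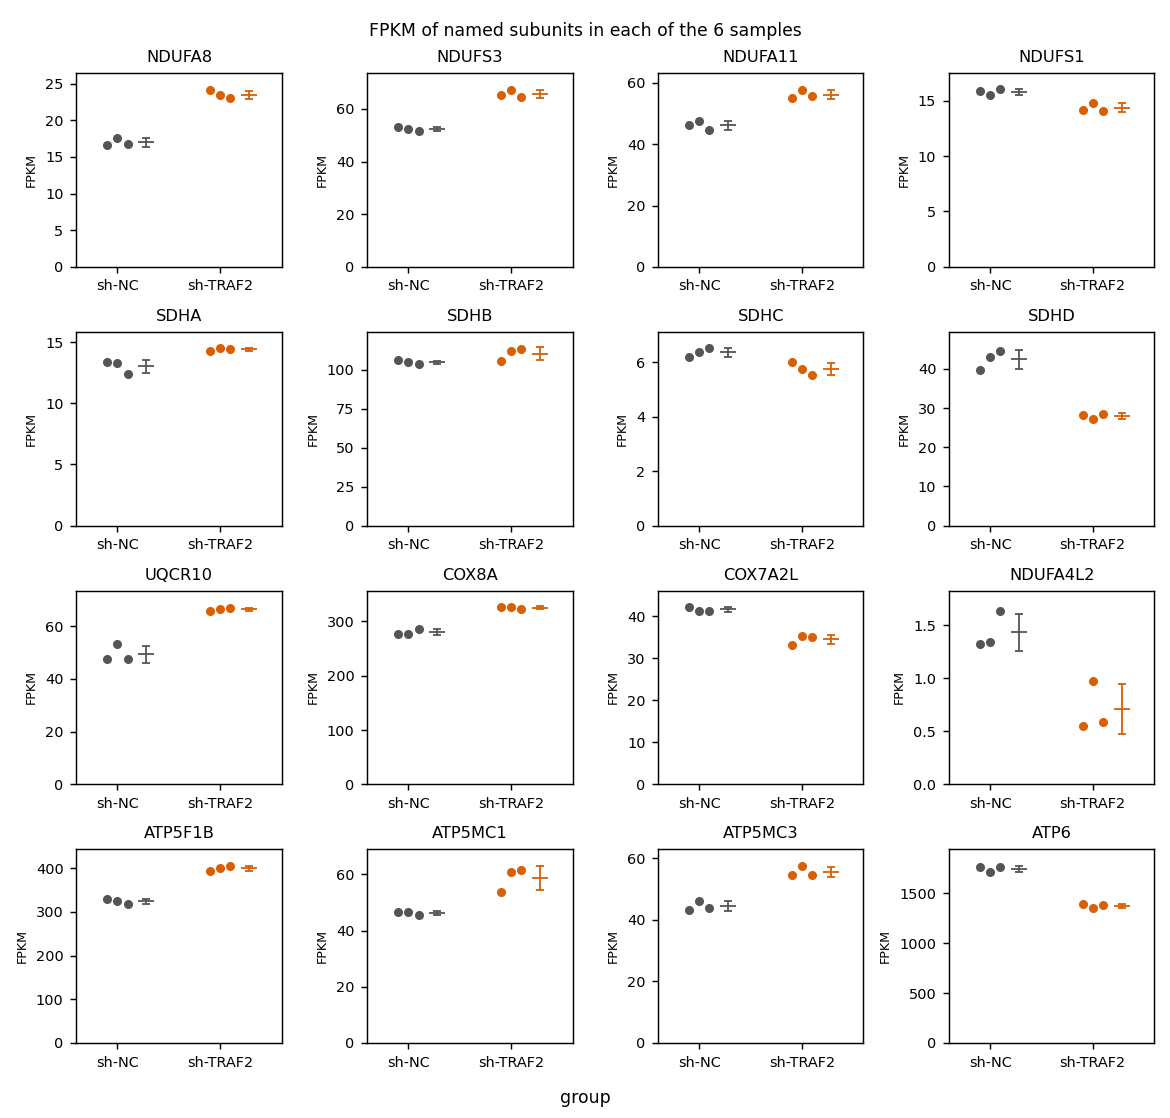
FPKM of 16 named subunits in each of the 6 samples (points, axis from 0), with the mean ± SD of each group (n = 3) beside them. SDHD is near 42.5 FPKM in sh-NC and 28.0 FPKM in sh-TRAF2, whereas the SDHA, SDHB and SDHC groups lie close together, and NDUFA8 and UQCR10 lie higher in every sh-TRAF2 sample.

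In complex III, 4 of 9 genes (44.4%) rose and none fell, beside 23.7% and 20.9% of all genes tested. Among all genes with a mean of at least 20 FPKM these shares were 38.4% and 22.7%. Each of the 9 log2 fold changes was above 0. UQCR10, a small subunit next to cytochrome c1, was at 47.6, 53.1 and 47.5 FPKM in sh-NC and at 65.9, 66.7 and 66.9 FPKM in sh-TRAF2. The groups lay well apart, and the mean rose by 34.5%, a log2 fold change of 0.43 (SE 0.048, adjusted p = 0.00025). UQCRH, the hinge protein that helps cytochrome c to dock, was at 199, 209.9 and 204 FPKM in sh-NC and at 244, 237 and 233 FPKM in sh-TRAF2, a log2 fold change of 0.22 (SE 0.034, adjusted p = 0.0011). UQCRHL is a near copy of UQCRH, and its 102 to 172 reads a sample cannot be told apart with confidence from reads of UQCRH; its log2 fold change of 0.51 (SE 0.10, adjusted p = 0.0045) is uncertain for that reason. UQCRC2, a core protein, had a log2 fold change of 0.12 (SE 0.033, adjusted p = 0.020), a call that ended without sh-NC replicate 1 or sh-TRAF2 replicate 1 or 3 (adjusted p of 0.057 to 0.076). UQCRB, with the lowest mean over the 6 samples, had one of 0.10 (SE 0.045, adjusted p = 0.089).

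In complex IV, cytochrome c oxidase, 8 of 11 tested genes (72.7%) rose and 2 (18.2%) fell, so that only COX6A1 was not called. Over all genes tested these shares were 23.7% and 20.9%, and among all genes with a mean of at least 20 FPKM 38.4% and 22.7%. With NDUFA4 and NDUFA4L2 counted in complex IV, 8 of 13 (61.5%) rose and 4 (30.8%) fell. COX8A was at 278, 277 and 287 FPKM in sh-NC and at 327, 327 and 323 FPKM in sh-TRAF2, a log2 fold change of 0.22 (SE 0.028, adjusted p = 0.00052). COX5A was at 36.2, 36.6 and 36.4 FPKM in sh-NC and at 41.1, 42.3 and 41.7 FPKM in sh-TRAF2, a log2 fold change of 0.20 (SE 0.034, adjusted p = 0.0022). Both are structural subunits around the catalytic core, and neither gene's groups overlapped. COX5B, the zinc-binding subunit, fell, with a log2 fold change of -0.13 (SE 0.032, adjusted p = 0.011).

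Several complex IV subunits exist as isoforms. COX7A2, the widely expressed form, was at 81.5, 83.2 and 77.1 FPKM in sh-NC and at 95.8, 96.6 and 89.9 FPKM in sh-TRAF2, a log2 fold change of 0.22 (SE 0.043, adjusted p = 0.0039). COX7A2L, a relative that joins complexes III and IV into supercomplexes, went the other way: it was at 42.2, 41.3 and 41.2 FPKM in sh-NC and at 33.2, 35.1 and 35.0 FPKM in sh-TRAF2, a log2 fold change of -0.27 (SE 0.039, adjusted p = 0.00082). COX7A1, the heart and muscle form, was listed at 0 in 5 samples and at 0.0838 FPKM in sh-TRAF2 replicate 3. COX6B2 and COX8C, known from testis, stayed at or below 0.0385 and 0.149 FPKM.

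Among the common forms, COX6B1 had a log2 fold change of 0.19 (SE 0.054, adjusted p = 0.021), COX4I1 one of 0.12 (SE 0.035, adjusted p = 0.024) and COX7B one of 0.12 (SE 0.042, adjusted p = 0.047). These calls were not firm: leaving out one sample gave an adjusted p of 0.059 to 0.070 for COX6B1 (sh-NC replicate 1 or 3, or sh-TRAF2 replicate 1) and of 0.064 to 0.092 for COX4I1 (sh-NC replicate 3, or sh-TRAF2 replicate 2 or 3). For COX7B it gave 0.071 to 0.15 in all cases but one, sh-NC replicate 3. COX6A1 was at 302, 315 and 287 FPKM in sh-NC and at 285, 309 and 297 FPKM in sh-TRAF2, so its groups overlapped, and its log2 fold change of -0.022 (SE 0.043) changed sign without sh-NC replicate 2 or without sh-TRAF2 replicate 1. COX4I2, COX6A2 and COX7B2 were not analysed here.

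In complex V, 8 of 17 tested genes (47.1%) rose and none fell, beside 23.7% and 20.9% of all genes tested. Among all genes with a mean of at least 20 FPKM these shares were 38.4% and 22.7%. ATP5F1B, the catalytic beta subunit, was at 329, 326 and 317 FPKM in sh-NC and at 393, 401 and 405 FPKM in sh-TRAF2, a log2 fold change of 0.30 (SE 0.029, adjusted p = 0.00011). It had the highest FPKM of the nuclear subunit genes chosen by name, with 20494 to 25010 reads a sample, and the gap between the groups was several times the spread within either. ATP5F1A, the alpha subunit that alternates with it in the catalytic ring, was at 24.3, 23.1 and 22.4 FPKM in sh-NC and at 25.0, 24.2 and 24.7 FPKM in sh-TRAF2, a log2 fold change of 0.080 (SE 0.044, adjusted p = 0.17). Within the tested F1 sector ATP5F1B was thus the 1 of 4 genes called.

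The c-ring, the rotor in the membrane, is built from one mature protein that 3 genes encode, with different import sequences. ATP5MC1 was at 46.6, 46.5 and 45.5 FPKM in sh-NC and at 53.9, 60.8 and 61.5 FPKM in sh-TRAF2, a log2 fold change of 0.34 (SE 0.053, adjusted p = 0.0012). ATP5MC3 was at 43.2, 46.1 and 43.7 FPKM in sh-NC and at 54.5, 57.5 and 54.6 FPKM in sh-TRAF2, a log2 fold change of 0.32 (SE 0.042, adjusted p = 0.00047). ATP5MC2 was at 33.9, 34.7 and 35.0 FPKM in sh-NC and at 35.7, 38.2 and 34.6 FPKM in sh-TRAF2, so its groups overlapped, and its log2 fold change was 0.066 (SE 0.045, adjusted p = 0.27). ATP5MC1 and ATP5MC3 thus rose and ATP5MC2 was not called; the difference between the genes was not tested.

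Of the membrane subunits around the rotor 3 of 5 (60%) rose. The shares were 23.7% of all genes tested and 38.4% of those with a mean of at least 20 FPKM. Among them ATP5MG was at 112, 115 and 112 FPKM in sh-NC and 128, 126 and 127 FPKM in sh-TRAF2, a log2 fold change of 0.16 (SE 0.030, adjusted p = 0.0029). ATP5MF and ATP5MK also rose, but their calls held in only 12 and 9 of the 18 other settings described below. Of the 4 genes of the peripheral stalk, which holds the catalytic head still, only ATP5PB rose (25%), near the share of all genes tested. ATP5IF1, the inhibitor that binds the enzyme when the proton gradient collapses, also rose, with a log2 fold change of 0.16 (SE 0.039, adjusted p = 0.011). ATP5MGL, a retrocopy of ATP5MG, was at most 0.0365 FPKM.

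Of the 6 antisense or divergent transcripts named after subunit genes, NDUFB2-AS1 and NDUFV2-AS1 passed the filter. NDUFB2-AS1 was at 0.882 to 2.18 FPKM in sh-NC and at 1.83 to 2.32 FPKM in sh-TRAF2, and neither transcript was called (adjusted p = 0.11 and 0.15).

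The 13 subunits encoded by the mitochondrial genome lie outside the name rule and form the other part of the same enzymes. They are transcribed as long precursors from both strands of one small genome, so they are not independent of each other. Each of the 13 had a log2 fold change below 0, from -0.35 (ATP8, whose groups overlapped) to -0.13 (ND1), with a median of -0.29. Of these, 12 fell, beside 20.9% of all genes tested, and ND6, encoded on the other strand, was not called. ND6 was at 298, 216 and 227 FPKM in sh-NC and at 191, 191 and 213 FPKM in sh-TRAF2, so that the groups did not overlap, and its log2 fold change was -0.30 (SE 0.11, adjusted p = 0.053). After quantile normalization 8 of the 13 were called lower.

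ATP6, which forms the proton channel with the c-ring, was at 1762, 1712 and 1763 FPKM in sh-NC and at 1390, 1352 and 1377 FPKM in sh-TRAF2, a log2 fold change of -0.35 (SE 0.026, adjusted p = 3.4e-05). COX3, of the complex IV core, was at 3008, 2823 and 3006 FPKM in sh-NC and at 2279, 2287 and 2429 FPKM in sh-TRAF2, a log2 fold change of -0.34 (SE 0.037, adjusted p = 0.00020). After quantile normalization the log2 fold change of COX3 was only -0.082 (adjusted p = 0.058), while that of ATP6 was -0.33. ND5, of the complex I membrane arm, was at 508, 479 and 492 FPKM in sh-NC and at 402, 414 and 403 FPKM in sh-TRAF2, a log2 fold change of -0.28 (SE 0.031, adjusted p = 0.00024). In all 3 genes the groups were separate. ATP6 shares bases with ATP8, and ND4 with ND4L, so the split of reads within these pairs is uncertain.

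The share of reads on mitochondrially encoded subunits was 2.10% to 2.29% in sh-NC and 1.76% to 1.86% in sh-TRAF2, while the share on the 84 nuclear subunit genes was 0.724% to 0.741% and 0.783% to 0.788%. The samples therefore held relatively more nuclear and less mitochondrial subunit RNA in sh-TRAF2. RNA sequencing of a culture gives RNA as a share of the total, so that less RNA per mitochondrial genome, fewer mitochondrial genomes and a change in total RNA per cell cannot be told apart. Rescaling each sample to the total of the other genes left 25 nuclear subunits higher and 8 lower and 13 mitochondrially encoded subunits lower.

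CYC1, which carries the haem of cytochrome c1 in complex III, and NDUFAB1, an acyl carrier protein of complex I, are nuclear subunits that the name rule does not reach. CYC1 was at 68.3, 72.5 and 63.6 FPKM in sh-NC and at 76.9, 77.4 and 78.3 FPKM in sh-TRAF2, a log2 fold change of 0.19 (SE 0.049, adjusted p = 0.014). NDUFAB1 had a log2 fold change of 0.10 (SE 0.035, adjusted p = 0.040), a call that ended on leaving out any one of 5 samples (adjusted p of 0.066 to 0.12). That of CYC1 lay within the range of the complex III subunits above.

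Assembly factors build the complexes without staying in them. Of 53 tested, 15 (28.3%) rose and 5 (9.43%) fell, beside 23.7% and 20.9% of all genes tested, with a median log2 fold change of 0.11, beside 0.019 over all genes tested. In complex II, SDHAF4, which helps the flavin-bound SDHA to reach its partner, was at 4.46, 4.42 and 4.71 FPKM in sh-NC and at 2.53, 2.61 and 3.28 FPKM in sh-TRAF2. Its mean fell by 38.1%, a log2 fold change of -0.68 (SE 0.10, adjusted p = 0.00098), while SDHAF1, which serves SDHB, was at 0.23 (SE 0.081, adjusted p = 0.051) and SDHAF2, which flavinates SDHA, at 0.12 (SE 0.070, adjusted p = 0.19). Complex II thus had its largest fall in one anchor subunit and in one assembly factor of the catalytic head.

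Over all genes tested 23.7% rose and 20.9% fell. For complex I, 6 of 18 tested assembly factors (33.3%) rose and none fell. They included TMEM126B and ACAD9, which build the membrane arm, with log2 fold changes of 0.38 (SE 0.078, adjusted p = 0.0052) and 0.28 (SE 0.052, adjusted p = 0.0032), and NDUFAF3, which acts early on the ubiquinone module, with 0.27 (SE 0.036, adjusted p = 0.00062). For complex III, 2 of 6 rose: BCS1L, which inserts the Rieske protein, at 0.29 (SE 0.057, adjusted p = 0.0041) and UQCC3, a cytochrome b assembly factor, at 0.28 (SE 0.057, adjusted p = 0.0046). UQCC2 was at 0.12 (SE 0.054, adjusted p = 0.11).

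For complex IV, 6 of 22 tested assembly factors (27.3%) rose and 3 (13.6%) fell, beside 23.7% and 20.9% of all genes tested. COX20, the chaperone of the newly made COX2 protein, was at 38.6, 36.1 and 40.4 FPKM in sh-NC and at 30.8, 27.5 and 29.1 FPKM in sh-TRAF2, a log2 fold change of -0.40 (SE 0.058, adjusted p = 0.00090). COX11, which delivers copper to the COX1 protein, was at 4.15, 3.90 and 4.16 FPKM in sh-NC and at 5.51, 5.06 and 5.36 FPKM in sh-TRAF2, a log2 fold change of 0.37 (SE 0.063, adjusted p = 0.0018). COA5 had a log2 fold change of -0.38 (SE 0.086, adjusted p = 0.0082). Steps of the same assembly line thus had opposite signs.

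For complex V, ATPAF1, the chaperone of the beta subunit, fell with a log2 fold change of -0.24 (SE 0.058, adjusted p = 0.011), opposite to its client ATP5F1B. ATPAF2, the chaperone of the alpha subunit, was at 0.20 (SE 0.069, adjusted p = 0.041), a call that leaving out any one of 5 samples ended (adjusted p of 0.075 to 0.13), and TMEM242 was at 0.019 (SE 0.061, adjusted p = 0.81).

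Besides complexes I and II, other dehydrogenases feed electrons to ubiquinone. Of the carriers and donors tested 3 of 7 (42.9%) rose and 2 (28.6%) fell, beside 23.7% and 20.9% of all genes tested. GPD2, the mitochondrial glycerol-3-phosphate dehydrogenase, was at 14.1, 12.6 and 13.9 FPKM in sh-NC and at 8.92, 9.55 and 9.80 FPKM in sh-TRAF2, a log2 fold change of -0.52 (SE 0.061, adjusted p = 0.00029). SQOR, which oxidises sulfide, had a log2 fold change of -0.36 (SE 0.070, adjusted p = 0.0038). ETFDH, which takes electrons from fatty acid oxidation, was at 4.10, 3.91 and 3.98 FPKM in sh-NC and at 4.64, 4.96 and 4.99 FPKM in sh-TRAF2, a log2 fold change of 0.28 (SE 0.061, adjusted p = 0.0072).

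**Figure D4:**
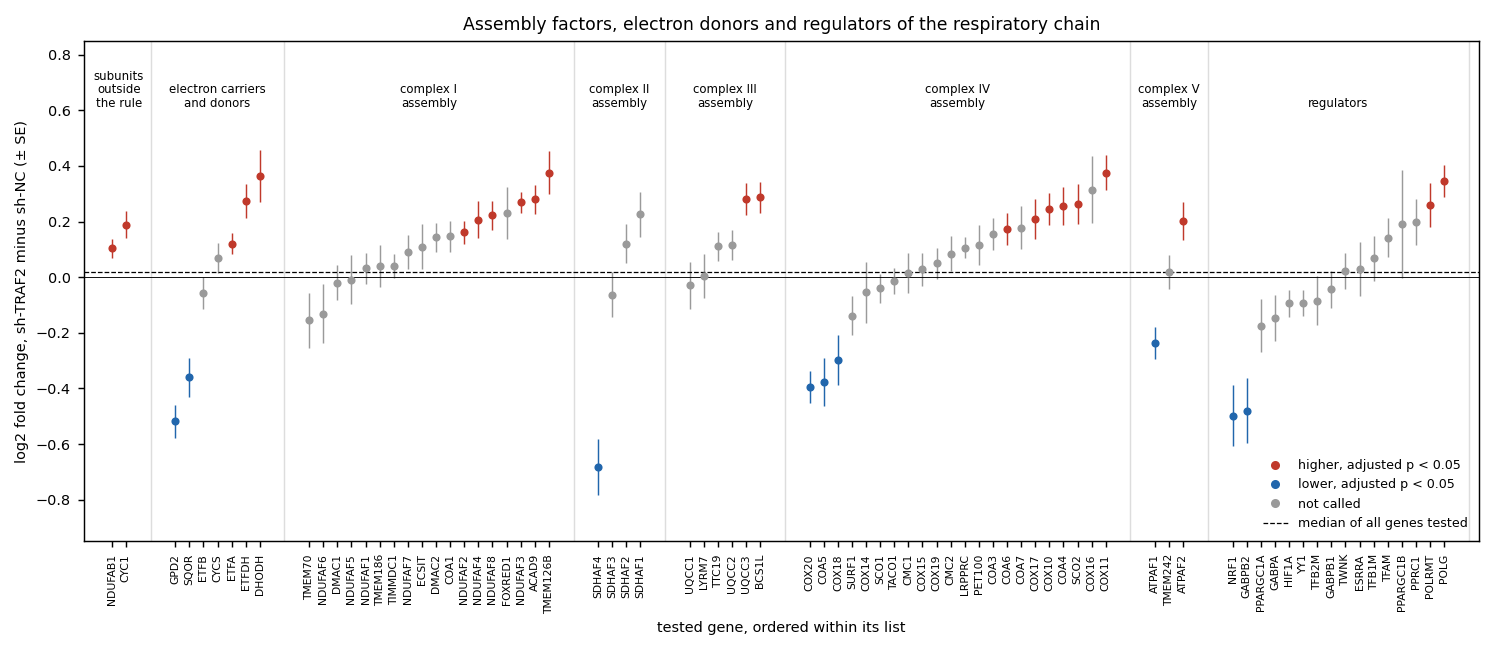
Log2 fold change (sh-TRAF2 minus sh-NC, ± SE) of the tested genes of the lists around the enzymes, coloured by the call at an adjusted p under 0.05, with the median of all genes tested as a dashed line. SDHAF4, GPD2, NRF1 and GABPB2 lie lowest, and the complex I and III assembly factors hold no gene that fell.

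Of 16 regulators of mitochondrial gene expression, 2 (12.5%) rose and 2 (12.5%) fell, beside 23.7% and 20.9% of all genes tested. POLG, the catalytic subunit of the mitochondrial DNA polymerase, was at 8.44, 9.39 and 8.69 FPKM in sh-NC and at 11.0, 11.6 and 11.1 FPKM in sh-TRAF2, a log2 fold change of 0.35 (SE 0.056, adjusted p = 0.0016). NRF1, a transcription factor of many subunit genes, was at 9.81, 8.53 and 10.2 FPKM in sh-NC and at 5.68, 7.64 and 6.86 FPKM in sh-TRAF2. The groups did not overlap, and its log2 fold change was -0.50 (SE 0.11, adjusted p = 0.0069). GABPB2, a partner of the ETS factor GABPA, had a log2 fold change of -0.48 (SE 0.12, adjusted p = 0.011). GABPA itself was at -0.15 (SE 0.084, adjusted p = 0.19), GABPB1 at -0.044 (SE 0.068, adjusted p = 0.62) and YY1 at -0.092 (SE 0.045, adjusted p = 0.13). None of these was called.

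Since the levels of NRF1 and GABPB2 fell, the promoters of the subunit genes were read for the letters known for NRF1 and for ETS factors such as GABPA. Letters known for YY1 were read as well. RefSeq windows (GRCh38.p14) from 250 bases before to 50 bases after the start were at hand for 67 of the 84 subunit genes. The full palindrome GCGCATGCGC, known for NRF1, was in the windows of 4 subunit genes (5.97%), beside 1.52% of all 27305 genes with such a window. The ETS letters CCGGAAGT, on either strand, were in those of 12 genes (17.9%, beside 4.95% of all genes), and the letters AAGATGGC, known for YY1, on either strand, were also in those of 12 genes (17.9%, beside 3.52%). Of the 12 genes with the ETS letters 3 rose, 3 fell and 6 were not called, and of the 12 with the YY1 letters 3 rose, none fell and 9 were not called. Over all genes tested 23.7% rose and 20.9% fell, and of the tested subunits 40.5% and 7.59%. In both sets the share of rises was near that of all genes tested, and no link of the letters to the calls was tested.

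The 4 promoters with the full NRF1 palindrome are shown because they belong to the complex II gene that fell most, the complex I gene that rose most and 2 genes that were not called. Each is printed from 170 bases before the start to 20 bases after it, on the strand of the gene, with the palindrome and any ETS letters in capitals.
SDHD (chr11:112086703-112086892, plus strand): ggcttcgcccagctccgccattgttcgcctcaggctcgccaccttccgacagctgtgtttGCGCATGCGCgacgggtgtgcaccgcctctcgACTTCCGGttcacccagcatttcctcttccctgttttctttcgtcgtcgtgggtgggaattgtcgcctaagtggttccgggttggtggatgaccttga
NDUFA8 (chr9:122159760-122159949, minus strand): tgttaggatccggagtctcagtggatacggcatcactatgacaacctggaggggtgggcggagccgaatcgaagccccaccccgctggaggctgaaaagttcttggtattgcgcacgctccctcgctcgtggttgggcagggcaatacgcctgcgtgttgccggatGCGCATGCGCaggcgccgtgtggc
NDUFB4 (chr3:120596166-120596355, plus strand): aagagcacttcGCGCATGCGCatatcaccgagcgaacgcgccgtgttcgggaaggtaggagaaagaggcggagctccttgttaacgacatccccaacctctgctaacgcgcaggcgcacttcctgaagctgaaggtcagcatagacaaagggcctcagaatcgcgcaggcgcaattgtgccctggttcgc
ATP5F1C (chr10:7788007-7788196, plus strand): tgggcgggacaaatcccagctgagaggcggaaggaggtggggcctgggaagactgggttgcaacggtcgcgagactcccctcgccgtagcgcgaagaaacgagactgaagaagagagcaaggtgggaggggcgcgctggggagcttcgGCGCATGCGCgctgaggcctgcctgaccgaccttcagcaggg

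The palindrome starts 110 bases before the start in SDHD, 159 in NDUFB4 and 22 in ATP5F1C, and spans the start in NDUFA8. Of the genes with these 10 letters, SDHD had a log2 fold change of -0.60 and NDUFA8 one of 0.47. NDUFB4 (0.14, SE 0.067) and ATP5F1C (-0.042, SE 0.036) were not called. SDHD was the 1 gene of the 4 whose printed stretch also holds the ETS letters. The letters describe the windows, and binding was not measured. Any part of NRF1, GABPB2 or YY1 in these changes was not tested.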

How the data were processed

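Per the labels, total RNA of U251 cells (sh-NC and sh-TRAF2, 3 samples each) was extracted with TRIzol and made into libraries with the VAHTS Universal V6 kit. The submitters' processing notes name HISAT2, HTSeq, DESeq2 and R 3.2.0. The genome build, the annotation and the strandedness of the counting are not given in the sources used here. The authors deposited FPKM values per gene and sample, with no counts. Whole reads were recovered from the steps of these values for 20359 of 23002 rows. The totals of 33999558 to 36823562 reads a sample also include the other rows, for which whole numbers were not established. The reads served for depth, implied gene lengths and one alternative test.

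Genes whose mean FPKM was below 0.5 were left out. The other 11870 were fitted as log2(FPKM + 0.1) with limma 3.58.1 in R 4.3.3 (lmFit and trended eBayes, two-sided), and p was adjusted over all of them by the Benjamini-Hochberg method. Fold changes are on this log2(FPKM + 0.1) scale, so those of low genes are understated. The fit was tested on simulated data. The members and gene lists were chosen with earlier results of these data known. Named genes were TRAF2, in each complex the 4 subunits with the smallest adjusted p, the subunits of complex II, the nuclear core of complex I, the isoform groups, the highest and lowest subunit of each complex by mean FPKM, and the 3 genes with the smallest adjusted p of each list. One gene that this rule names is not reported here. Others named with values were chosen after their values were seen: NDUFB4 and ATP5F1C for their promoters, ATP5F1A, COX5B, ATP5IF1, ATP5PB, ATP5MF, ATP5MK, NDUFC2, ATP5F1E, HIF1A, GABPA, GABPB1, YY1, ATP8, ND1, ND6, the antisense transcripts and overlapping genes. The file names mitochondrially encoded genes ND1, COX1 and so on; they were matched by NCBI Gene number. Exon overlaps came from GENCODE 29 and promoters from RefSeq. Intervals were not computed for FPKM. Figures were drawn with matplotlib 3.10.9.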

Additional observations from a re-analysis of the deposited data

How the results depend on the processing

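The 4 counts (subunits higher, lower and past a log2 fold change of 1, and mitochondrially encoded subunits lower) and the 6 medians were recomputed under the other pseudocounts (1 and 0.01), filters (none, 1 and 20 FPKM), scalings, tests and leave-one-out fits; rescaling without mitochondrially encoded genes and limma-voom on recovered reads were chosen after seeing the data. Of the 182 values, 158 stayed within their limits. The limit of a count was a ratio to the main count, which took in 9 subunits lower in place of 6. It also took in 8 mitochondrially encoded subunits lower in place of 12. Where the main count was 0, any other count was outside. The limit of a median was the SD of the per-sample medians within the groups. Under quantile normalization all 6 medians moved past it. Subunits higher ranged from 23 to 36, subunits lower from 4 to 9, and mitochondrially encoded subunits lower from 8 (quantile normalization) to 13. The call held in every other setting that tested the gene for 20 of the 32 higher and 4 of the 6 lower subunits. It held so for 6 of the 12 mitochondrially encoded subunits called lower. One subunit, NDUFA4L2, in place of 0 passed a log2 fold change of 1 with the pseudocount of 0.01, quantile normalization or limma-voom (1 in each), and 0 to 1 did when 1 sample was left out. Under quantile normalization the medians were 0.042 over all subunits and 0.016, -0.074, 0.071, 0.11 and 0.088 in complexes I to V, and under rescaling without mitochondrially encoded genes 0.070 over all and 0.014, -0.067, 0.082 and 0.10 in complexes I to IV; the cause was not tested. At 20 FPKM or more the median was 0.079 in complex I and -0.26 in complex II, where only SDHB and SDHD remain; TPM rescaling gave -0.048 in complex II, and no filter 0.10 in complex V. Leaving out 1 sample gave medians of 0.045 to 0.069 in complex I and 0.11 to 0.18 in complex V.

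Among the named genes that were not called, the sign turned for SDHB (-0.014, quantile normalization), NDUFS7 (-0.0053 under quantile normalization and -0.013 under the rescaling, and -0.020 to 0.062 with 1 sample left out), NDUFS8 (-0.0056 with TPM, -0.0026 with median centring, -0.038 with quantile normalization and -0.025 with the rescaling, and -0.018 to 0.037 with 1 sample left out), COX6A1 (-0.056 to 0.010 with 1 sample left out) and TMEM242 (-0.013 under the rescaling, and -0.0092 to 0.052 with 1 sample left out); COX3 was no longer called after quantile normalization (-0.082 in place of -0.34, adjusted p = 0.058). The labels number the replicates alike in both groups, but deviations of same-numbered samples from their group means correlated at only -0.081, 0.072 and 0.073. No strong shared deviation was seen, and whether same-numbered samples were prepared together is not known. With the replicate block 36 subunits were higher and 6 lower, COX7B and ATPAF2 were no longer called (adjusted p = 0.051 and 0.062) and SDHAF1 was (adjusted p = 0.020). Genes with few reads, such as NDUFA4L2, are the ones that depth limits most.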
